A study of Homo sapiens with 6 samples.

Results

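Genes of prostaglandin synthesis, breakdown and reception were examined in 2 subpopulations of H460, an established human large cell lung carcinoma line, that differed in invasiveness. The genes were PLA2G4A, PTGS1, PTGS2, PTGES, PTGES2, PTGES3, HPGD, PTGR1, PTGER2 and PTGER4, taken as every probe that the platform annotation assigns to these 10 symbols: 14 of 47322 probes on the array, and 10 of the 20045 genes it names. At least 3 arrays read above background for 11 of these probes, which stand for 8 genes, and these were tested among 10279 genes in all. Untreated H460 cells had been passed repeatedly through membranes coated with basement membrane extract. The cells that got through became the H-INV (highly invasive) subpopulation, and those left on the upper side the L-INV (low invasive) one. The labels give 48 hours a round and 6 rounds, whereas the methods give a longer time and fewer rounds. Both subpopulations were kept in glucose-free RPMI-1640 with 10% FBS, so the controls shared that medium with the invasive cells. Each subpopulation was represented by 3 sets of cells, and the RNA of each set was hybridized to an Illumina HT-12 v4 array of its own. Whether the sets came from separate selections is not stated in the methods. The p-values therefore rest on the spread among the sets, which could be technical.

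Prostaglandins are short-lived lipid signals made from arachidonic acid. Cytosolic phospholipase A2 frees the fatty acid from membranes, cyclooxygenases turn it into prostaglandin H2, and terminal synthases turn that into prostaglandin E2 and its relatives. Prostaglandin E2 acts through the EP receptors at the cell surface and is inactivated by oxidation and reduction of its ring and side chain. The inducible cyclooxygenase encoded by PTGS2 is often raised in lung carcinoma and is the target of anti-inflammatory drugs.

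A probe counted as above background where its detection p against the negative controls of that array was under 0.01, which held for 16368 to 16985 probes an array, at median scanner intensities of 123 to 134. The chip was the same for all 6 arrays, the first 3 positions holding L-INV and the last 3 H-INV, so position and subpopulation cannot be told apart. Pearson correlations across the genes tested were 0.995 to 0.996 within a subpopulation against 0.92 to 0.927 between them, genes not being independent replicates. Of the epithelial markers, 5 of 6 were above background, including the simple keratins KRT8 and KRT18. CDH1 was not above background on any array, and EPCAM was above it in L-INV cells only. None of 5 lung lineage markers was. Of 8 leukocyte markers, 3 were above background on some array, and PTPRC, CD3E, TYROBP, LAPTM5 and FCER1G on none. The 5 endothelial markers were not above background on any array.

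The genes whose change passed both of the study's thresholds, a fold change above 2 and an adjusted p under 0.05, were PTGS2, PLA2G4A and PTGER4, which fell, and PTGER2, which rose. PTGER4 and PTGER2 were each above background in 1 subpopulation only. Their promoters are printed here because these members moved. Each stretch holds the 250 bases before a transcription start of the gene as RefSeq gives it on GRCh38.p14, 5′ to 3′ on the strand of the gene, with capitals at matches on either strand to TGACG (part of a cAMP response element), CACGTG (an E-box), TATAAA (a core promoter element), GGGCGG (an SP1 box) or CCAAT.
PTGS2 (chr1:186680424-186680673, - strand): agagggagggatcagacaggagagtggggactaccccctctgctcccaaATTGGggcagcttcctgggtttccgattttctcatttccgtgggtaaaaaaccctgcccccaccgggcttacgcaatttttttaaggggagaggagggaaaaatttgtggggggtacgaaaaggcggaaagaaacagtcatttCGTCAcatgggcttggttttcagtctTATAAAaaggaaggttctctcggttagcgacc
PLA2G4A (chr1:186828699-186828948, + strand): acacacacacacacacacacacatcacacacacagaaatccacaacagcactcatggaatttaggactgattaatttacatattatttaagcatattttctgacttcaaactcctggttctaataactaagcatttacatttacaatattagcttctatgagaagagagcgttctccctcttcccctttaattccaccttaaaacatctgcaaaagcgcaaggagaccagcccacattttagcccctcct
PTGER4 (chr5:40679665-40679914, + strand): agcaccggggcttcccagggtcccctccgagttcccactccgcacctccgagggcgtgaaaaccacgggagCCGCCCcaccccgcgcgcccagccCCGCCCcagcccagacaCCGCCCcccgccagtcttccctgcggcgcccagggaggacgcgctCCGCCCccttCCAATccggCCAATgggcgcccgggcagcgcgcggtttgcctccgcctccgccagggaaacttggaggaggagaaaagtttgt
PTGER2 (chr14:52314062-52314311, + strand): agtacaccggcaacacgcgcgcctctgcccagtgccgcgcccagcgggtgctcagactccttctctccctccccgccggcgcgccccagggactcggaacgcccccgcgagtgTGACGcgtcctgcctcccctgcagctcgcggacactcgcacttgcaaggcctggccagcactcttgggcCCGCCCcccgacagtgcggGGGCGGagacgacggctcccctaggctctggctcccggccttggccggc

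In the PTGS2 window TGACG began 58 bases before the start, read on the opposite strand, TATAAA 32 bases before it, and CCAAT, on the opposite strand, 201 bases before it. Of 35116 promoter windows of that length in the table, 21.2% held TGACG, 10.7% TATAAA and 32% CCAAT. The PLA2G4A window, of low GC content (38.8%), held none of the 5 motifs. The PTGER4 window held 4 copies of GGGCGG, present in 42.6% of windows, and 2 of CCAAT. That of PTGER2 held TGACG once, beginning 137 bases before the start, and GGGCGG in 2 places. None of the 4 held CACGTG, found in 6.34% of windows, and no match overlapped another motif in them. These matches describe letters only.

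PTGS2 mRNA, which encodes the inducible cyclooxygenase, fell about 3.86-fold in H-INV cells. Its scanner intensities, before any correction, were 3939, 3598 and 2771 in L-INV replicates 1 to 3 against 843, 882 and 1001 in the H-INV replicates. After background correction and quantile normalization the log2 intensities were 11.73, 11.75 and 11.46 against 9.65, 9.65 and 9.79. All 3 H-INV arrays lay below all L-INV arrays, and L-INV replicate 3 was the lowest of its group. The means were 11.65 ± 0.165 in L-INV cells and 9.70 ± 0.0811 in H-INV cells (SD over n = 3 arrays). On the log2 scale this difference came to -1.95 (95% confidence interval -2.17 to -1.73, standard error 0.09, adjusted p = 5.84e-07 by limma), the 208th of 10279 genes from the largest fall. The other PTGS2 probe read 10.33, 10.24 and 9.96 in L-INV cells and 7.85, 8.10 and 8.05 in H-INV cells, again without overlap, and its log2 change was -2.18 (standard error 0.11, adjusted p = 1.86e-06 over all probes). On the uncorrected scale the group means differed 3.78-fold and 3.80-fold for these probes.

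The constitutive cyclooxygenase, PTGS1, was not above background on any array. Its probes gave scanner intensities of 109 to 138 and of 98.8 to 128, with detection p from 0.0117 to 0.764 and from 0.0623 to 0.996. Its level was therefore not measurable here in either subpopulation, and it was not tested.

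PLA2G4A, the cytosolic phospholipase A2 that supplies arachidonic acid, fell together with PTGS2. Its log2 intensities were 8.37, 8.32 and 8.20 in L-INV cells and 5.36, 6.14 and 6.01 in H-INV cells. The groups did not overlap. In H-INV cells the probe was above background on 2 of 3 arrays, H-INV replicate 1 being the exception. Its log2 change of -2.46 (standard error 0.18, adjusted p = 7.67e-06 by limma) became -2.22 without that replicate. Its size depended on how the background was treated, as the value was -1.39 without background correction.

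Of the terminal prostaglandin E synthases, the inducible one fell slightly and the other genes of the group were not called. PTGES, a microsomal enzyme that often accompanies PTGS2, read 10.87, 11.08 and 10.97 in L-INV cells and 10.58, 10.57 and 10.66 in H-INV cells. Its arrays did not overlap, and the gene fell by 0.37 on the log2 scale, 1.29-fold (standard error 0.08, adjusted p = 0.00308 by limma). PTGES2, a membrane-associated synthase, read 9.90, 9.90 and 9.96 against 10.05, 9.97 and 9.82, and its groups overlapped. The log2 fold change of PTGES2 was 0.03 (95% confidence interval -0.15 to 0.20, adjusted p = 0.793), and its other probe gave 0.15 (-0.07 to 0.36, adjusted p = 0.227 over all probes). PTGES3, the cytosolic synthase that is also the HSP90 co-chaperone p23, had 11.33, 11.42 and 11.49 against 11.37, 11.38 and 11.45. Its log2 fold change was -0.01 (95% confidence interval -0.18 to 0.15, adjusted p = 0.872), again with overlapping groups.

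**Figure D1:**
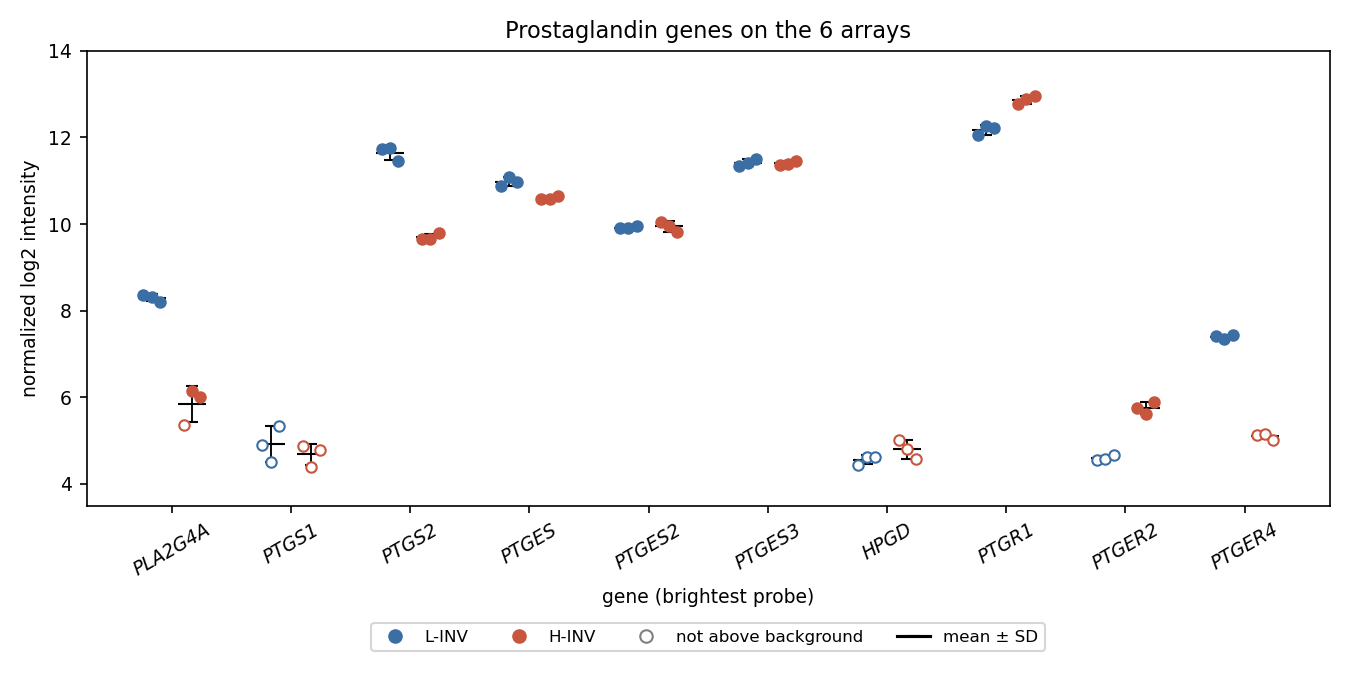
Normalized log2 intensity of the brightest probe of each gene (vertical axis) on the 3 L-INV arrays (blue) and the 3 H-INV arrays (red), 1 point per array, with the mean and SD in black and open points where the probe was not above background. PTGS2 stands at 11.46 to 11.75 in L-INV cells and 9.65 to 9.79 in H-INV cells, PTGER2 and PTGER4 are each above background in 1 subpopulation, and PTGS1 and HPGD are open throughout.

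On the side of breakdown, PTGR1 rose. PTGR1, prostaglandin reductase 1, reduces the oxidized prostaglandins and also inactivates leukotriene B4. It read 12.05, 12.27 and 12.22 in L-INV cells and 12.77, 12.88 and 12.95 in H-INV cells, without overlap. This was a rise of 0.68 on the log2 scale, or 1.61-fold (standard error 0.08, adjusted p = 1.70e-04 by limma), and the other PTGR1 probe rose by 0.85 (adjusted p = 3.19e-05 over all probes). HPGD, the dehydrogenase that takes the first step of prostaglandin E2 inactivation, was not above background on any array. Its scanner intensities ran from 118 to 129 and its detection p from 0.0468 to 0.632, so it was not tested.

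The receptors moved in opposite directions. PTGER4, which encodes EP4, read 7.41, 7.36 and 7.43 in L-INV cells, and 5.13, 5.16 and 5.02 in H-INV cells, where no array showed it above background. With the processing used here, the fall was at least 3.86-fold (adjusted p = 3.00e-08 by limma). PTGER2, which encodes EP2, showed the reverse, with 4.55, 4.57 and 4.66 in L-INV cells, none above background, and 5.74, 5.60 and 5.88 in H-INV cells, all above it. The rise was at least 1.21-fold (adjusted p = 7.56e-06 by limma). For these bounds the mean of the group with signal was divided by that of the group without, in which each array took its own value or that of its faintest detected probe, whichever was greater. The fitted log2 fold changes were -2.29 for PTGER4 and 1.15 for PTGER2. They were -1.0 and 0.37 without background correction, and the PTGER2 change stayed below 2-fold there and with an offset of 50 (0.59) or the normalized table of the authors (0.86). Each receptor had 1 probe, and each passed the detection filter through 1 subpopulation only, so it had to differ once it was kept. The same limit holds for each other gene given below as an at least N-fold change, and the adjusted p of such a gene is a description.

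Of the 8 members tested, 2 rose, 4 fell and 2 were not called at an adjusted p under 0.05, where 58.0% of all genes tested were called, 32.6% higher and 25.4% lower. With the fold threshold added, 1 rose and 3 fell, where 10.2% of all genes passed, 4.22% higher and 6.02% lower. These counts include PTGER2 and PTGER4, which the detection filter bound to differ. Among the 6 members above background in both subpopulations, PTGR1 rose, PTGS2, PLA2G4A and PTGES fell and 2 were not called, where 31.7% of the 9762 genes of that kind were higher and 24% lower. PTGS2 and PLA2G4A were the 2 that also passed the fold threshold, as 4.35% of those genes did downward and 2.97% upward. Arrays of the subpopulations did not overlap for the 6 called members, 2 with all H-INV arrays above and 4 below, as for 64.5% of all genes (36.3% above, 28.2% below). Without the receptors, which the filter had set apart, these were 1 above and 3 below. Of the 9762 genes above background in both subpopulations, 3480 had all H-INV arrays above and 2635 all below. By probe, 8 of the 11 tested passed the adjusted p and 5 both thresholds, where 52.8% and 9.12% of all probes did. The median log2 fold change of the tested members was -0.19, and that of all genes 0.05. The plot of change against level sets these members among all genes tested. With cells in bulk, fewer cells expressing a gene and less RNA per cell cannot be told apart.

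**Figure D2:**
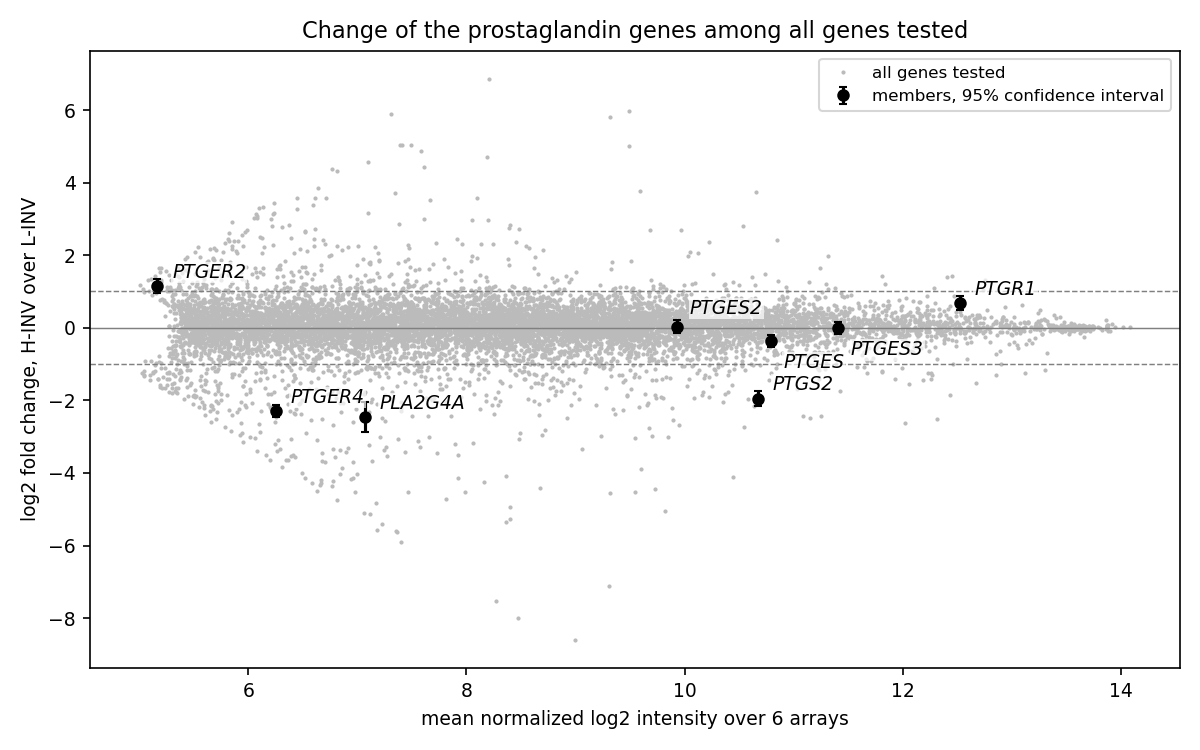
Log2 fold change of H-INV over L-INV cells (vertical axis) against mean normalized log2 intensity over the 6 arrays (horizontal axis), 1 grey point per gene tested, with the 8 tested members in black and their 95% confidence intervals; dashed lines mark a fold change of 2. PLA2G4A (-2.46), PTGER4 (-2.29) and PTGS2 (-1.95) lie below the lower line and PTGER2 (1.15) just above the upper one, at the dim end.

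Both subpopulations were cultures of the H460 line, and markers of cell types are given beside these falls as a description of them. The summed level of the 8 leukocyte markers was 874 to 960 in L-INV cells and 412 to 454 in H-INV cells on the linear normalized scale. CD14 (log2 fold change -1.51) and CD68 (-1.41, but only -0.45 on its other probe) fell. PTPRC, the defining antigen of leukocytes, was not above background on any array. The sum of 7 fibroblast markers was 765 to 815 in L-INV cells and 1361 to 1713 in H-INV cells. COL3A1 rose by 1.12, and COL1A2, DCN, LUM and PDGFRA were above background on no array. Of the 5 epithelial markers tested, 3 fell, 1 rose and 1 was not called. KRT19 had a log2 fold change of -4.12 and KRT8 of -0.30, EPCAM, without signal above background in H-INV cells, fell at least 1.90-fold, KRT7 rose by 1.09, and KRT18 was at -0.27 (adjusted p = 0.0624). Epithelial sums were 7805 to 7884 in L-INV cells and 2013 to 2088 in H-INV cells. Most of that drop was KRT19, since the other 4 tested markers summed to 2022 to 2038 and 1657 to 1741. The part of these markers in the results was not tested.

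Around the members, 7 enzymes that make or convert other prostanoids were tested. In H-INV cells 6 of them rose, none fell and 1 was not called (list median 1.30 on the log2 scale). Of all genes tested, 32.6% rose and 25.4% fell. Of the 6 enzymes above background in both subpopulations, 5 rose and none fell, where 31.7% of such genes were higher and 24% lower. PTGDS, the lipocalin-type synthase of prostaglandin D2, had no L-INV array above background and rose at least 8.19-fold (adjusted p = 9.33e-08 by limma). The glutathione transferases GSTM3 and GSTM2, of a family that can isomerize prostaglandin H2, rose by 1.97 and 1.43, and another GSTM2 probe rose by 1.14. GSTM genes resemble one another closely, so their probes may not tell every copy apart. CBR1, a carbonyl reductase that can turn prostaglandin E2 into prostaglandin F2α, rose by 1.30 and its relative CBR3 by 1.02, both named after their values were seen. AKR1C3, a prostaglandin F synthase with close relatives of its own, was at 0.07 (adjusted p = 0.385, named after its value was seen). HPGDS and PTGIS, the hematopoietic prostaglandin D and the prostacyclin synthases, were above background on no array, and the thromboxane synthase TBXAS1 was on too few to be tested.

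Of 9 tested genes of arachidonate release and recycling, 4 rose and 3 fell, with a median of 0.03. Of all genes, 32.6% rose and 25.4% fell. Of the 8 above background in both subpopulations, 4 rose and 2 fell, where 31.7% of such genes were higher and 24% lower. MGLL, which splits monoacylglycerols and can release arachidonate from 2-arachidonoylglycerol, had no H-INV array above background and fell at least 3.53-fold (adjusted p = 1.48e-07 by limma). Another MGLL probe fell by 1.43. The calcium-independent phospholipase PNPLA8 fell by 0.92. In the direction of re-esterification, ACSL4, the acyl-CoA synthetase that prefers arachidonate, rose by 1.28, and LPCAT3, which returns polyunsaturated chains to phospholipids, by 0.81, and LPCAT3 was singled out after its value was seen. Secreted phospholipases PLA2G2A and PLA2G10 were above background on no array.

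Of 6 tested genes of transport and later breakdown, 4 rose and 1 fell (median 0.45), against 32.6% and 25.4% of all genes. Among those that rose, 2 were above background in H-INV cells only. Of the 4 genes above background in both subpopulations, 2 rose and 1 fell, where 31.7% of such genes were higher and 24% lower. SLCO3A1, an organic anion carrier that accepts prostaglandin E2, rose at least 3.43-fold and SLCO2B1 at least 1.61-fold, neither being detected above background in L-INV cells. Other probes rose by 1.30 and 1.02 for SLCO3A1 and by 1.09 for SLCO2B1. SLCO4A1 rose by 0.66. PTGR2, another prostaglandin reductase, fell by 0.36 on the log2 scale, opposite to PTGR1 (adjusted p = 0.0446, named after its value was seen). The PTGR2 call was lost when L-INV replicate 2 (adjusted p = 0.141), L-INV replicate 3 (0.0582), H-INV replicate 1 (0.0949) or H-INV replicate 2 (0.149) was left out. The prostaglandin carrier SLCO2A1 was above background on no array. Among 8 other receptor genes, only PTGFRN, a membrane protein that binds the prostaglandin F receptor, was above background, and it fell by 0.81. The receptors PTGER1, PTGER3, PTGDR, PTGDR2, PTGFR, PTGIR and TBXA2R were not, so EP2 and EP4 were the prostanoid receptors seen on any of these arrays.

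**Figure D3:**
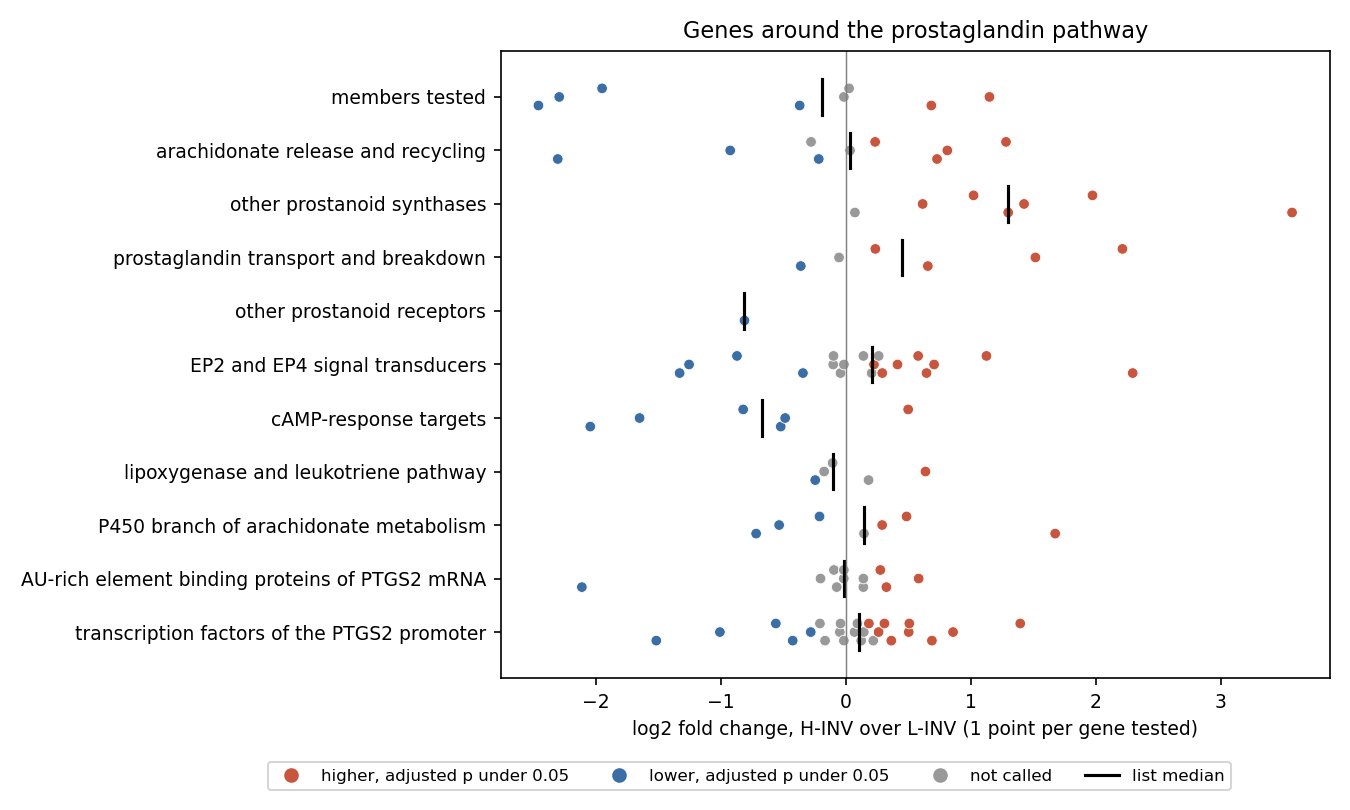
Log2 fold change of H-INV over L-INV cells (horizontal axis) for the tested genes of each list, 1 point per gene, coloured by call at an adjusted p under 0.05, with the list median as a black bar; vertical scatter within a row has no meaning. The prostanoid synthases other than the members lie to the right (median 1.30) and the cAMP-response targets mostly to the left (median -0.67).

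EP2 and EP4 both signal through the stimulatory G protein, cAMP and protein kinase A. Of 19 tested transducers of that path, 8 rose, 4 fell and 7 were not called (median 0.21), near the shares of all genes (32.6% higher, 25.4% lower). ARRB1, the beta-arrestin that turns off and internalizes receptors, rose by 2.30, with 0.65 and 1.10 for its other probes. PRKACB, a catalytic subunit of protein kinase A, fell by 1.33, and PRKAR1A, a regulatory subunit that holds the kinase inactive, fell by 1.25, while its other probe fell by 1.46. The other PRKACB probe fell less, short of 2-fold, with a log2 fold change of -0.495 (adjusted p = 0.0181 by limma over all probes). The size of the PRKACB fall therefore depended on the probe. PRKACA was above background on no array.

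Of 6 tested genes known to respond to cAMP, 5 fell and 1 rose (median -0.67, or -0.50 with genes seen in 1 subpopulation at their bound), where 25.4% of all genes were lower and 32.6% higher. Of the 4 above background in both subpopulations, 4 fell, where 24% of the 9762 genes of that kind were lower and 31.7% higher. NR4A2, an orphan nuclear receptor induced within minutes of a cAMP rise, fell by 2.04, while its other probe fell by 2.22. PDE4D, a cAMP phosphodiesterase, fell by 1.65. NR4A1, without signal above background in H-INV cells, fell at least 1.20-fold (adjusted p = 0.00615 by limma), a call not made without moderation of the variance, as in the test the methods name (adjusted p = 0.0661). The kinase gene SIK1 (-0.52) and the phosphodiesterase PDE4B (-0.49) also fell. PDE4A was at least 1.29-fold higher. These 3 were singled out with their values known. Such genes respond to many other stimuli as well. The list was chosen with earlier results of these data known and does not hold every gene that responds to cAMP.

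PTGS2 mRNA is short-lived because proteins bind AU-rich elements in its 3′ end. Of 11 tested genes of such proteins, 3 rose, 1 fell and 7 were not called (median -0.02), so 4 of 11 were called where 58.0% of all genes were. The one that fell was ZFP36, which encodes tristetraprolin, a factor that speeds decay of PTGS2 mRNA, with a log2 change of -2.11 (standard error 0.09, adjusted p = 2.57e-07 by limma). TARDBP rose by 0.58 and KHSRP, another decay factor, by 0.33. Of 24 tested transcription factors known to act at the PTGS2 promoter, 9 rose, 5 fell and 10 were not called (median 0.11), close to the 32.6% higher and 25.4% lower of all genes. EGR1, an immediate early factor, fell by 1.52, CEBPD, a C/EBP factor of inflammation, rose by 1.40, and CEBPG, its partner that lacks an activation domain, fell by 1.01.

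Lipoxygenases and P450 enzymes act on the same arachidonate. Of the lipoxygenase and leukotriene genes, 5 of 19 on the array were tested, 1 rose and 1 fell (median -0.11), where 58.0% of all genes were called. The microsomal glutathione transferase MGST2 rose by 0.64 and MGST1 fell by 0.24. LTA4H, the leukotriene A4 hydrolase, was at 0.18 (adjusted p = 0.0598), MGST3 at -0.17 (adjusted p = 0.0662) and the leukotriene B4 receptor LTB4R at -0.11 (adjusted p = 0.432). ALOX5, ALOX12, ALOX15 and the 5-lipoxygenase activator ALOX5AP were above background on no array. In the P450 branch, 3 of 7 tested genes rose and 3 fell (median 0.15), where 32.6% of all genes rose and 25.4% fell. Of the 6 above background in both subpopulations, 2 rose and 3 fell, where 31.7% of such genes were higher and 24% lower. CYP2J2, an arachidonate epoxygenase, had no L-INV array above background and rose at least 2.15-fold. CYP1B1 fell by 0.72 and the electron donor POR by 0.53.

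The 6 called members kept their direction and an adjusted p under 0.05 in each of 17 other settings in which they could be tested, as the plot of members under other processing choices shows. For PTGER2 and PTGER4, which the detection filter bound to differ, this is a description only. Neither they nor PLA2G4A could be tested with detection required on all 6 arrays. PTGS2 ranged from -2.18 to -1.83 on the log2 scale and PTGES from -0.43 to -0.31. PTGR1 ranged from 0.62 to 0.85, PLA2G4A from -2.61 to -1.39, PTGER4 from -2.32 to -1.0 and PTGER2 from 0.37 to 1.22.

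**Figure D4:**
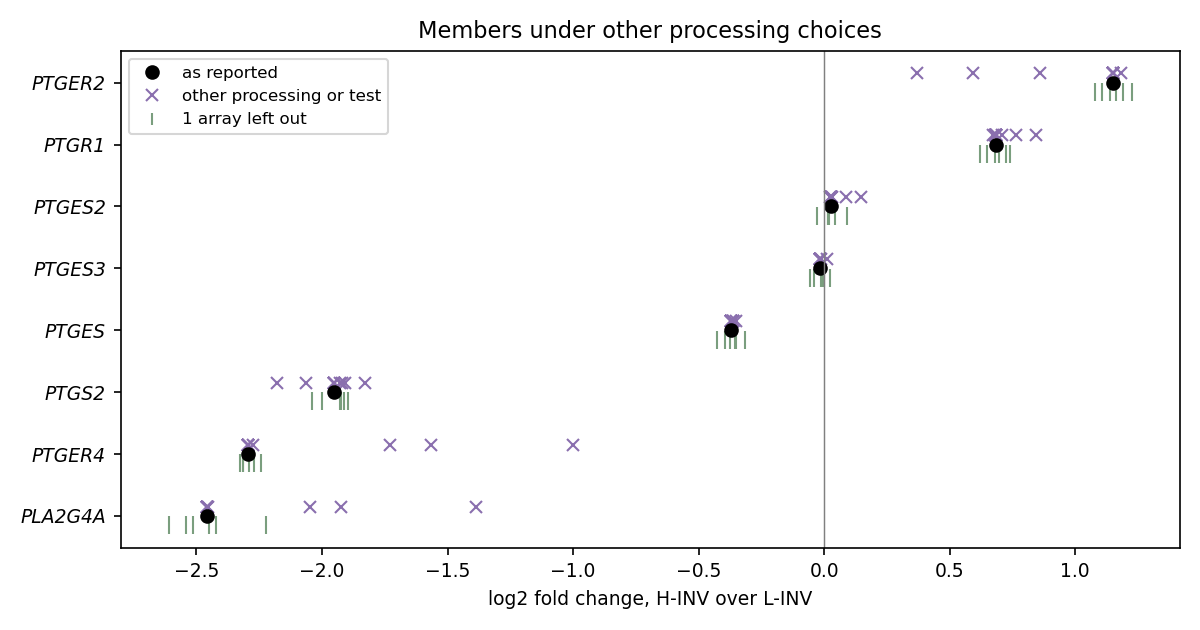
Log2 fold change of H-INV over L-INV cells (horizontal axis) of each tested member as reported (black), under other processing or another test (crosses) and with 1 array left out (ticks). PTGS2 stays between -2.18 and -1.83, whereas the dim PTGER2, PTGER4 and PLA2G4A move toward 0 when the background is treated differently.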

How the data were processed

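Total RNA of 3 sets each of H460 L-INV and H-INV cells was hybridized to Illumina HT-12 v4 arrays and scanned on a HiScan system. The authors deposited probe intensity on a linear scale, without background subtraction or normalization, and beside it a detection p-value for each probe. Their second deposited table gives background-subtracted, quantile normalized intensity from GenomeStudio, on a linear scale with values below 0 (medians 9.86 to 9.88), and keeps the order of probes of the scanner table on each array. For the constant the authors added before taking logs, the value is not given in the sources used. The submitters' processing notes name GenomeStudio and Partek.

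Background was corrected by normexp in limma 3.58.1 (R 4.3.3), taking the negative control level from detection p-values and adding an offset of 16, before quantile normalization and log2. Probes were kept where 3 or more of the 6 arrays had a detection p below 0.01 (16941), and the brightest probe stood for each gene. Of all probes, 30111 have 1 symbol, 8 several and 17203 none in the annotation used, and the RefSeq gene table (GRCh38.p14) held the Entrez ID of 30072. Moderated two-sided tests (lmFit, eBayes) were run on the 10279 genes and adjusted over all of them by Benjamini-Hochberg; other probes of a gene were fitted over all 16941 probes. The methods name a one-way ANOVA, which was an alternative. On simulated data with the means and spreads of these 10279 genes, limma found 99 of 100 genes changed 3-fold and 77 of 100 changed 1.5-fold at the adjusted p, with 17 false calls. All other genes were left unchanged there and the values were drawn independently, whereas 58.0% of genes were called in the data. These rates therefore need not hold for the data.

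Members and lists were chosen with earlier results of these data known. The genes named are the 10 members, up to 3 called genes per list with the largest change (every gene where 5 or fewer were tested), the 5 genes closest to PTGS2 across the arrays and 2 neighbours on each side of PTGS2 and PLA2G4A; others are marked as named after their values were seen, and cell type markers are those of a fixed list. Of 21 other probes of the named genes that are no members, the markers EPCAM and KRT7 left out, all 21 gave the same call. Lists are described by counts, without a set test. Some listed genes are not analysed here. Alternatives covered background correction, offset, scaling, the authors' table (40 added before log2), detection filter, probe choice, variance model, the replicate number as a block and each array left out. The number of arrays limits the precision (median standard error 0.0824).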

Additional observations from a re-analysis of the deposited data

How the results depend on the processing

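Pairs of a named gene and one of 17 alternatives numbered 957, leaving out PTGS2 and the markers EPCAM and KRT7. Of these pairs, 928 kept direction and side of the threshold, 9 lost the call, 16 gained one and 4 changed sign. Those 4 were uncalled: with 1 array left out PTGES2 ran from -0.0276 to 0.0924 and PTGES3 from -0.0557 to 0.0231, and PTGES3 was 0.00999 with 75th percentile scaling. PTGS2 kept its call throughout. With detection required on all 6 arrays, PLA2G4A, PTGER2 and PTGER4 were dropped. Of PTGS2, PTGES, PTGES2, PTGES3 and PTGR1, which stayed, 3 were called (1 higher, 2 lower) and 1 passed both thresholds. Of the 9067 genes tested in that setting, 5320 passed the adjusted p and 639 both thresholds. Genes past both thresholds numbered 1053 in the setting used throughout. That count was 467 where no background was corrected, 691 where the offset was 50 and 639 where all 6 arrays had to detect a probe. Same-numbered arrays did not deviate together (correlations -0.0665, -0.0194 and -0.0926 across genes), and those with unlike numbers gave -0.035 to 0.0984. Such values cannot show whether the sets were prepared in pairs, which the methods do not state. With the replicate number as a block, 1053 genes passed both thresholds, 5647 the adjusted p, and 6 members were called, PTGS2 among them at -1.95 (adjusted p = 1.61e-05 by limma). What the depth of dim probes limits is the size of change: for PTGS1 and HPGD no level, and for PTGER2 and PTGER4 only a bound under the processing used.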

Other observations

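PTGS2 and PLA2G4A, which fell together, are next to each other on chromosome 1 among protein-coding genes of the RefSeq table. The only other entry between them is PACERR, a long noncoding RNA that has no probe in the annotation used here. The next protein-coding gene beyond PLA2G4A, BRINP3, moved the other way: without signal above background in L-INV cells, its probes rose at least 3.15-fold and 2.62-fold (log2 7.10, 7.14 and 7.13 for the brighter probe in H-INV cells, against 4.58, 4.43 and 4.54; adjusted p = 1.27e-08, limma). PDC and ODR4 on the other side of PTGS2, and RGS18 beyond BRINP3, were above background on no array. These neighbours were taken by gene order only, without regard to distance. Whether the joint fall of PTGS2 and PLA2G4A has to do with their position was not tested.

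The genes whose centred log2 profile over the 6 arrays lay closest to that of PTGS2 were the adaptor SHC4 (Euclidean distance 0.121), the desmosomal protein PERP (0.137), the tight junction gene CLDN1 (0.156), the potassium channel KCNJ2 (0.160) and the exonuclease ISG20 (0.167). Their log2 fold changes ran from -2.03 for CLDN1 to -1.86 for PERP. KCNJ2 was above background on no H-INV array, so its fall is measured only as at least 1.97-fold and its distance rests partly on values below background. With 2 groups of 3 arrays, such closeness reflects mostly a fall of like size.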
